A study of Drosophila melanogaster with 18 samples.

Results

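The transcripts of 6 genes of the m6A writer complex, Mettl3, Mettl14, vir, nito, Flacc and Hakai, were followed through 6 groups of Drosophila S2R+ cells. The genes were taken by name as subunits of the complex other than fl(2)d and matched by FlyBase symbol to 6 of the 17559 gene IDs counted. S2R+ is an adherent line with features of blood cells, grown here between passages 8 and 10. RNA interference was used in every group: 10 µg of double-stranded RNA was given 3 times within 6 days, so that a transcript of matching sequence is degraded. The control group was treated against LacZ, a bacterial gene. The knockdown groups were treated against Ime4 and dMettl14 together (Ime4_dMettl14), Fl(2)d (Fl2d), Vir, Nito or CG7358. Ime4, dMettl14 and CG7358 are other names of Mettl3, Mettl14 and Flacc. There were 3 libraries of polyadenylated RNA per group, and no group restored a lowered gene.

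N6-methyladenosine (m6A) is a methyl mark placed on adenosines of messenger RNA in the nucleus and read there and in the cytoplasm by YTH-domain proteins. Mettl3 is the catalytic methyltransferase and Mettl14 its partner, which holds the RNA. A second set of proteins, among them Fl(2)d, Virilizer (vir), Spenito (nito), Flacc and the E3 ubiquitin ligase Hakai, directs the pair to its substrates. In the fly the complex is best known for its part in the splicing of Sex-lethal and for its roles in the nervous system.

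Total counts ranged from 15743484 to 18100792 per library, and 8146 genes, including all 6 writer genes, passed the filter on low counts. Levels are given as CPM, counts scaled to the TMM-adjusted library size. Of the blood cell markers, srp (156 to 254 CPM over all libraries), crq (342 to 448 CPM), Pxn, Sr-CI, drpr and Hml were present, whereas NimC1 did not exceed 1.10 CPM and He did not exceed 3.77 CPM. Neuronal elav was present at 13.6 to 35.3 CPM, while nSyb, brp and Syt1 did not exceed 2.63 CPM. Among muscle and fat body markers Mf was at 245 to 396 CPM, while Mhc, Act88F, Lsp2 and Fbp1 did not exceed 0.310 CPM. The Nito libraries stood apart from the rest: 60.7% of all tested genes differed from control in Nito, against 5.63% in Ime4_dMettl14, 32% in Fl2d, 34% in Vir and 37.6% in CG7358.

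The writer genes are annotated on the build BDGP6 as follows. Mettl3 (FBgn0039139) lies on chromosome 3R from 24032157 to 24034257, with 1971 bases of exon. Mettl14 (FBgn0032016) lies on 2L from 8308427 to 8309961, with 1407 bases of exon. On 2R, vir (FBgn0003977) extends from 23360192 to 23366355 with 5867 exonic bases, and nito (FBgn0027548) from 7962463 to 7969805 with 4475. Flacc (FBgn0030974) is on X from 18888978 to 18893636 with 4147 exonic bases, and Hakai (FBgn0032812) on 2L from 19580612 to 19582474 with 1760. Exons of 3 of them overlap genes on the opposite strand: CG7810 covers 86 exonic bases of Mettl14, Mthfs covers 75 of vir, and CG8726 and CG14763 cover 442 and 300 of nito. Whether counting used strand is not given in the sources used here, so reads from these stretches could be assigned to either gene.

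In control cells the 6 transcripts were present at moderate levels that differed between the subunits. Per kilobase of exon, nito stood at 36.8 ± 0.672 CPM (SD, n = 3) and Mettl14 at 34.8 ± 1.47 CPM. The levels of Mettl3 (16.3 ± 0.214 CPM per kilobase) and vir (15.3 ± 0.258) were lower, and those of Hakai (10.4 ± 0.633) and Flacc (10.1 ± 0.535) were the lowest. The 2 members of the methyltransferase pair were therefore not equally abundant as RNA: the per-length level of Mettl14 was 2.25, 2.12 and 2.04 times that of Mettl3 in the 3 control libraries. The median over the 7971 tested genes with an annotated length was 19.0 CPM per kilobase, and the 6 genes lay between percentile 34.0 (Flacc) and percentile 69.8 (nito).

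**Figure D1:**
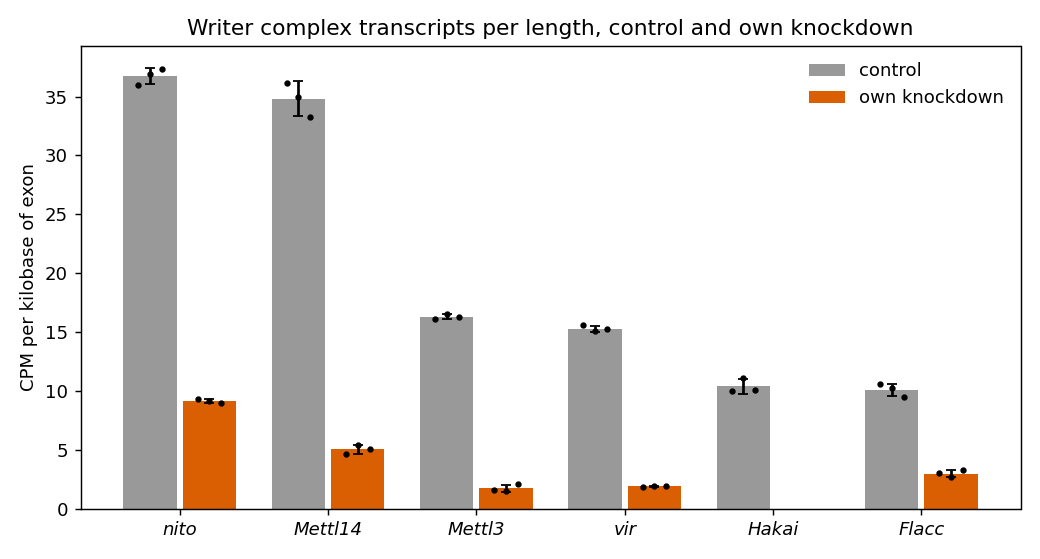
Level of each writer transcript in CPM per kilobase of merged exon (vertical axis) in control libraries (grey) and in the knockdown aimed at it (orange). Bars are means of 3 libraries, error bars are SD and points are libraries. Hakai was the target of no knockdown. The level of nito left in Nito, 9.15, was close to the control level of Flacc, 10.1.

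The first question is how far each knockdown lowered its own transcript. The methyltransferase pair, lowered together, fell furthest with vir, and nito and Flacc kept the largest share of their transcript. For Mettl3 the control libraries held 31.7, 32.6 and 32.2 CPM and the Ime4_dMettl14 libraries 3.13, 2.94 and 4.09 CPM. For Mettl14 the values were 50.9, 49.2 and 46.8 CPM in control and 6.50, 7.63 and 7.12 CPM in Ime4_dMettl14. No library of this group came near the control range for either gene. Virilizer, the largest subunit, is thought to serve as a scaffold, and its transcript went from 91.3, 88.4 and 89.3 CPM in control to 10.93, 11.05 and 11.17 CPM in Vir. The spread of vir within the Vir group, a coefficient of variation of 1.12%, was the smallest among the 5 lowered transcripts. That of Mettl3 in Ime4_dMettl14, 18.1%, was the largest.

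Spenito is an RNA-binding protein of the split ends family, and its transcript went from 161, 165 and 167 CPM in control to 41.9, 41.0 and 40.1 CPM in Nito. Flacc, which links Spenito to Fl(2)d in the fly, went from 43.8, 42.3 and 39.4 CPM to 12.4, 11.3 and 13.4 CPM in CG7358. Both sets of libraries lay well under their controls and above the shares left of the other 3 targets. As a share of the control mean, single knockdown libraries held 9.15% to 12.7% of Mettl3, 12.2% to 12.5% of vir, 13.3% to 15.6% of Mettl14, 24.4% to 25.4% of nito and 27.0% to 32.1% of Flacc. The ranges of Mettl3 and vir overlapped, and no other pair of the 5 did.

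**Figure D2:**
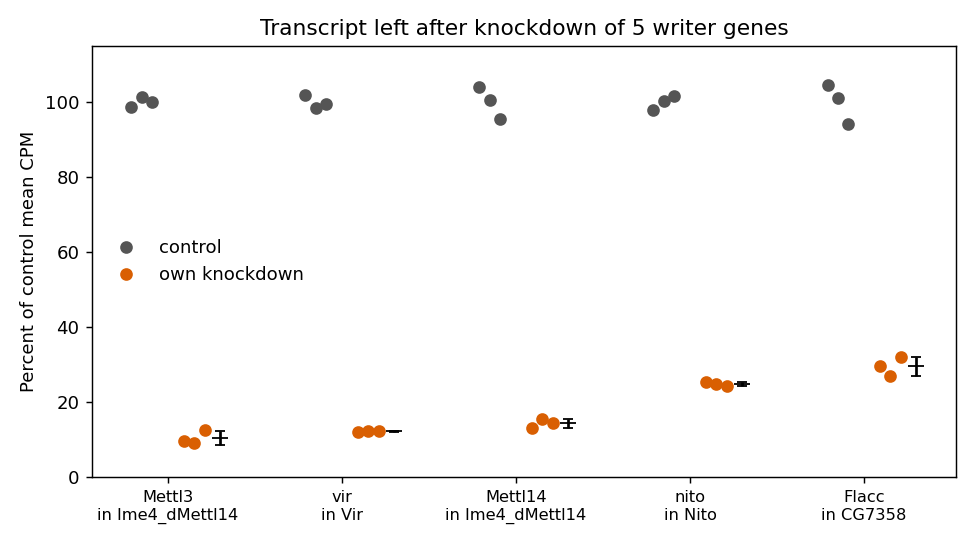
Transcript of each targeted writer gene as a percentage of its control mean (vertical axis) in the 3 control libraries (grey) and the 3 libraries of its own knockdown (orange). Error bars are the mean and SD of the knockdown libraries. All orange points lie at or below 32.1%, and those of nito and Flacc lie above those of Mettl3, vir and Mettl14.

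All 5 decreases passed an adjusted p under 0.05 in edgeR's quasi-likelihood test, fitted over all genes and libraries. The fitted share left, with its 95% interval, was 10.6% (9.39% to 11.97%) for Mettl3. It was 12.3% (11.5% to 13.3%) for vir, 14.5% (13.1% to 15.9%) for Mettl14, 24.9% (23.4% to 26.5%) for nito and 29.5% (23.9% to 36.4%) for Flacc. Of all tested genes 2.63% were called lower in Ime4_dMettl14, 17.3% in Vir, 18.8% in CG7358 and 30.9% in Nito. In bulk RNA a loss in every cell and a deeper loss in part of the cells cannot be told apart, nor can fewer cells of a type and less RNA per cell. What remained also differed in level: per kilobase, 1.72 ± 0.311 CPM of Mettl3, 1.88 ± 0.0210 of vir, 2.98 ± 0.260 of Flacc, 5.03 ± 0.403 of Mettl14 and 9.15 ± 0.198 of nito (SD, n = 3). Within the Ime4_dMettl14 libraries the per-length level of Mettl14 was 2.91, 3.63 and 2.44 times that of Mettl3, above the 1.85 to 2.25 of the other 15 libraries.

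Genes next to the targets did not share the large decreases. In Ime4_dMettl14 the antisense neighbour of Mettl14, CG7810, had a log2 fold change of −0.04 ± 0.10 (SE), and KrT95D and Miro on either side of Mettl3 had 0.07 ± 0.03 and −0.02 ± 0.04. None of these passed the threshold by edgeR (adjusted p = 0.876, 0.257 and 0.79), whereas Ostgamma next to Mettl14 rose (0.16 ± 0.03, adjusted p = 0.0035), as it also did in Fl2d (0.23 ± 0.03), Vir (0.19 ± 0.03) and CG7358 (0.26 ± 0.03), and it fell in Nito (−0.15 ± 0.03). CG7806, also beside Mettl14, was not called in Ime4_dMettl14 (0.04 ± 0.04), and CG34423 (0.02 ± 0.14) and Ice1 (0.06 ± 0.05), beside vir, were not called in Vir. Beside nito, Septin5 rose in Nito (0.15 ± 0.06, adjusted p = 0.0277, lost in 8 of 14 alternatives), but it was also called higher in Fl2d (0.18 ± 0.06), Vir (0.17 ± 0.06) and CG7358 (0.18 ± 0.06). CSN4 fell in Nito (−0.12 ± 0.04, adjusted p = 0.0141, 0.0935 without Nito replicate 3, range 0.00371 to 0.0935). CG8726, which shares 442 exonic bases with nito, had −0.04 ± 0.03 in Nito (adjusted p = 0.225), and Mthfs at vir had −0.29 ± 0.15 in Vir (adjusted p = 0.137). CG14763, the other gene antisense to nito, had at most 3 counts in any library and was not tested. CG7332 ends 117 bases from the end of Flacc, on the opposite strand, and fell slightly in CG7358 (−0.16 ± 0.04, adjusted p = 0.00415 by edgeR). It also fell in Fl2d (−0.14 ± 0.04) and Vir (−0.16 ± 0.04) and rose in Nito (0.47 ± 0.04). Without control replicate 2 its decrease gave an adjusted p of 0.0517 in CG7358, 0.123 in Fl2d and 0.0619 in Vir, and the value in Fl2d was 0.0635 when only the groups compared were fitted. Over all alternatives the adjusted p of this gene lay between 0.000157 and 0.123 in these 3 knockdowns.

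The second question is how each writer transcript behaved where another subunit was lowered. There were 25 such combinations of gene and knockdown. By edgeR 6 of them rose, 0 fell and 19 did not pass the threshold. At an unadjusted p under 0.05, 1 was lower, nito in CG7358, and DESeq2 called 0 lower. The increases were small, between 1.14-fold and 1.27-fold, and 4 of the 6 were in Nito. In Nito 29.8% of all tested genes were called higher, against 3.01% in Ime4_dMettl14, 16% in Fl2d, 16.7% in Vir and 18.8% in CG7358. The shares called lower were 30.9% in Nito, 2.63% in Ime4_dMettl14, 16% in Fl2d, 17.3% in Vir and 18.8% in CG7358.

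**Figure D3:**
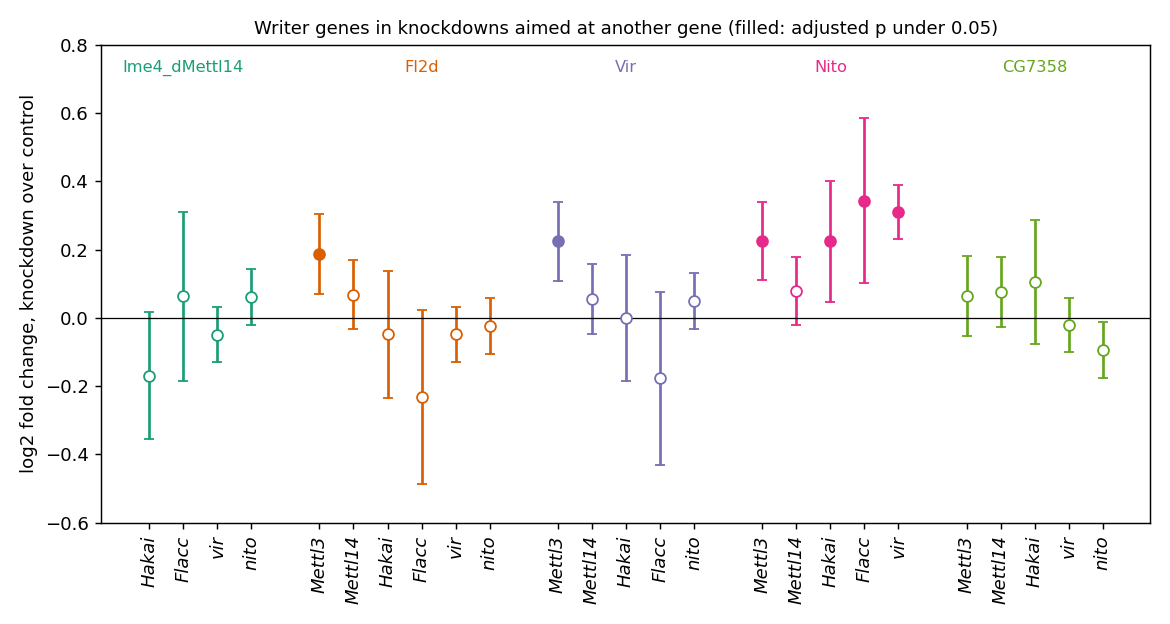
Log2 fold change over control (vertical axis) of each writer gene in the knockdowns aimed at another gene, with bars for the 95% interval. Filled points passed an adjusted p under 0.05 by edgeR: Mettl3 in Fl2d, Vir and Nito, and Hakai, Flacc and vir in Nito.

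Of the writer genes followed here, Mettl3 rose in the largest number of these knockdowns. The subunit gene fl(2)d, left out of this set, rose in every knockdown not aimed at it (log2 0.28 to 0.52). For Mettl3 the levels were as follows. Against control libraries of 31.7 to 32.6 CPM, Mettl3 stood at 37.0, 37.7 and 38.0 CPM in Vir, at 36.4, 36.7 and 39.6 CPM in Nito and at 38.6, 34.4 and 36.8 CPM in Fl2d. None of these 9 libraries overlapped the controls. Of all tested genes, 44.4% in Vir, 65.5% in Nito and 42% in Fl2d did not overlap them either. In CG7358 Mettl3 stood at 33.2, 33.2 and 34.4 CPM, also above every control library but by less, where 47.4% of all genes did not overlap. The log2 fold change was 0.22 ± 0.06 (SE) in Vir (adjusted p = 0.0024 by edgeR), 0.23 ± 0.06 in Nito (adjusted p = 0.000896), 0.19 ± 0.06 in Fl2d (adjusted p = 0.0115) and 0.06 ± 0.06 in CG7358 (adjusted p = 0.409). The first 2 calls held under every alternative listed in the methods. In Fl2d the call was lost without control replicate 1 (adjusted p = 0.0528), without Fl2d replicate 1 (0.105) and with scaling by total counts (0.062), with a range of 0.00554 to 0.105 over the alternatives. In direct comparisons Mettl3 was higher in Nito than in CG7358 by 0.16 ± 0.06 (adjusted p = 0.0146). That call was lost with DESeq2 (0.0502), without Nito replicate 3 (0.104) and without CG7358 replicate 1 (0.0524), over a range of 0.00267 to 0.104. For Vir over CG7358 the difference was 0.16 ± 0.06 with an adjusted p of 0.0566, and for Fl2d over CG7358 0.12 ± 0.06 with an adjusted p of 0.17.

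No call was made by edgeR for Mettl14, the partner of Mettl3, in the 4 knockdowns not aimed at it, and none had an unadjusted p under 0.05 (the smallest was 0.118, in Nito). DESeq2 called none either. Its control libraries held 46.8 to 50.9 CPM, and the means of the other groups lay between 50.9 ± 1.88 CPM (SD, n = 3, Vir) and 51.8 ± 2.22 CPM (Nito). All 4 groups overlapped the controls. Its log2 fold changes lay between 0.06 (Vir, 95% interval −0.05 to 0.16) and 0.08 (Nito, −0.02 to 0.18). An F test among the 5 groups not aimed at Mettl14 gave an adjusted p of 0.528 by edgeR, where 75.1% of all genes passed. The SD of its group means on the log2 scale was 0.0328, lower than for all but 1.72% of tested genes, against a median of 0.132. For Mettl3 the same F test gave an adjusted p of 0.00118, with an SD of 0.102 at percentile 35.5.

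The transcript of vir had nearly the same level in every untargeted group except Nito. Its libraries held 88.4 to 91.3 CPM in control, 84.5 to 88.3 in Ime4_dMettl14, 83.8 to 92.1 in Fl2d and 86.4 to 91.8 in CG7358. Those of Ime4_dMettl14 lay just under the controls, and the other 2 groups overlapped them. Of all tested genes, 24.3% in Ime4_dMettl14 and 65.5% in Nito did not overlap the controls. In Nito the vir libraries held 110, 112 and 111 CPM, above all of the libraries just named. The log2 fold change over control was 0.31 ± 0.04 (SE, adjusted p = 3.42e-08 by edgeR), which was higher than for 81.6% of tested genes in that comparison. It was also higher in Nito than in Ime4_dMettl14 (difference 0.36 ± 0.04, adjusted p = 1.67e-09), Fl2d (0.36 ± 0.04, adjusted p = 2.55e-09) and CG7358 (0.33 ± 0.04, adjusted p = 1.1e-08). All 4 of these calls held under every alternative. The F test among the 5 groups not aimed at vir gave an adjusted p of 7.47e-10, where 75.6% of all genes passed. In Ime4_dMettl14, Fl2d and CG7358 the log2 fold change over control was between −0.05 and −0.02, with 95% intervals reaching from −0.13 to 0.06.

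The transcript of Flacc varied most of the 6 between untargeted groups, with an SD of group means of 0.230 on the log2 scale (F test adjusted p = 0.00299 by edgeR, where 74.6% of all genes passed). Within these groups its coefficient of variation ranged from 4.84% in Ime4_dMettl14 to 18.3% in Fl2d. It stood at 49.2, 59.0 and 51.0 CPM in Nito, above the 39.4 to 43.8 CPM of the controls. As for 65.5% of all genes, its Nito libraries and the controls did not overlap. In Fl2d its 3 libraries ranged from 29.0 over 35.9 to 42.1 CPM and in Vir from 32.6 over 38.2 to 40.2 CPM, both overlapping the controls. In Ime4_dMettl14 they held 41.3, 44.7 and 45.2 CPM. The increase in Nito was 0.34 ± 0.11 (log2, SE, adjusted p = 0.0167 by edgeR), while Fl2d (−0.23 ± 0.12, adjusted p = 0.157) and Vir (−0.18 ± 0.12, adjusted p = 0.279) did not pass. The call in Nito was lost without control replicate 3 (adjusted p = 0.0677) and without Nito replicate 2 (0.0752), within a range of 0.000202 to 0.0752 over the alternatives.

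Compared directly, Flacc was lower in Fl2d than in Nito by 0.58 ± 0.11 (log2, SE, adjusted p = 0.000701 by edgeR) and lower in Vir than in Nito by 0.52 ± 0.11 (adjusted p = 0.00146). Both calls held under every alternative. Ime4_dMettl14 was lower than Nito by 0.28 ± 0.11 (adjusted p = 0.0409), which was lost without a filter on low counts (0.106), without any one of the 3 Ime4_dMettl14 libraries (0.0729 to 0.141) and without Nito replicate 2 (0.167) or 3 (0.0548). Over all alternatives it ranged from 0.00079 to 0.167. Without Fl2d replicate 3, the library with the highest Flacc in that group, the decrease of Flacc in Fl2d over control was −0.38 and passed the threshold (adjusted p = 0.0127, within a range of 0.0127 to 0.42). Leaving out the highest library must lower the mean, and in 13 of the 14 alternatives this decrease was not called.

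The transcript of nito had the highest CPM of the 6 and moved little among the 5 groups not aimed at it. These groups leave out Nito, where the largest share of all genes was called. The SD of the group means of nito was 0.0625 on the log2 scale, at percentile 31.2, against a median of 0.0885. Its control libraries held 161, 165 and 167 CPM. The libraries of Vir, at 170, 168 and 173 CPM, lay just above, and those of CG7358, at 152, 148 and 163 CPM, lay mostly below. In Ime4_dMettl14 they spread from 159 over 174 to 182 CPM. No knockdown passed the threshold against control, and the nearest was CG7358 (−0.09 ± 0.04, adjusted p = 0.0654 by edgeR). That value passed with scaling by total counts (adjusted p = 0.00271), with upper-quartile scaling (0.0343), without a filter on low counts (0.0417) and without CG7358 replicate 3 (0.0141), over a range of 0.00271 to 0.286. The difference between knockdowns was called: nito was higher in Ime4_dMettl14 than in CG7358 by 0.16 ± 0.04 (adjusted p = 0.0034), which held under every alternative. It was also higher in Vir than in CG7358 by 0.14 ± 0.04 (adjusted p = 0.0151), which was lost without Vir replicate 3 (0.0654) and without CG7358 replicate 2 (0.111), over a range of 0.00268 to 0.111. The F test among the 5 groups not aimed at nito gave an adjusted p of 0.0108, where 51.7% of all genes passed, and 0.0767 without CG7358 replicate 2, within a range of 0.000409 to 0.0767.

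Hakai encodes an E3 ubiquitin ligase, and it alone was aimed at by none of the double-stranded RNAs. It had the lowest CPM of the 6, and its mean went from 16.3 CPM in Ime4_dMettl14 over 17.7 in Fl2d, 18.3 in both Vir and control and 19.7 in CG7358 to 21.4 in Nito. The F test among the 6 groups gave an adjusted p of 0.00533 by edgeR, where 76.9% of all genes passed. The libraries held 14.7, 16.2 and 17.9 CPM in Ime4_dMettl14, 17.6, 19.6 and 17.7 CPM in control and 19.8, 22.8 and 21.6 CPM in Nito. As for 65.5% of all genes, the Nito libraries did not overlap the controls, and they lay just above them. Those of Ime4_dMettl14 overlapped the controls. Against control the log2 fold change was 0.22 ± 0.09 in Nito (adjusted p = 0.0274 by edgeR) and −0.17 ± 0.09 in Ime4_dMettl14 (adjusted p = 0.327). The call in Nito was lost with DESeq2 (0.0684) and without control replicate 1 (0.106), control replicate 3 (0.0929), Nito replicate 2 (0.121) or Nito replicate 3 (0.0691), over a range of 0.0102 to 0.121.

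The groups at the ends of this order were also compared directly. Control lay between them by mean, so their difference had to be larger than that of either from control. Hakai was lower in Ime4_dMettl14 than in Nito by 0.39 ± 0.09 (log2, SE, adjusted p = 0.000342 by edgeR), and this held under every alternative. It was also lower in Ime4_dMettl14 than in CG7358 by 0.27 ± 0.09 (adjusted p = 0.0209) and lower than in Nito in both Fl2d (0.27 ± 0.09, adjusted p = 0.00976) and Vir (0.22 ± 0.09, adjusted p = 0.031). The first of these 3 was lost without Ime4_dMettl14 replicate 1 (0.131) or 2 (0.0621) or CG7358 replicate 1 (0.0978), over a range of 0.00381 to 0.131. The second was lost without Fl2d replicate 1 (0.056) or 2 (0.0631) or Nito replicate 2 (0.0549), over a range of 0.000216 to 0.0631. The last was lost with DESeq2 (0.0693) and without Vir replicate 2 (0.19) or Nito replicate 2 (0.13) or 3 (0.0761), over a range of 0.00858 to 0.19.

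**Figure D4:**
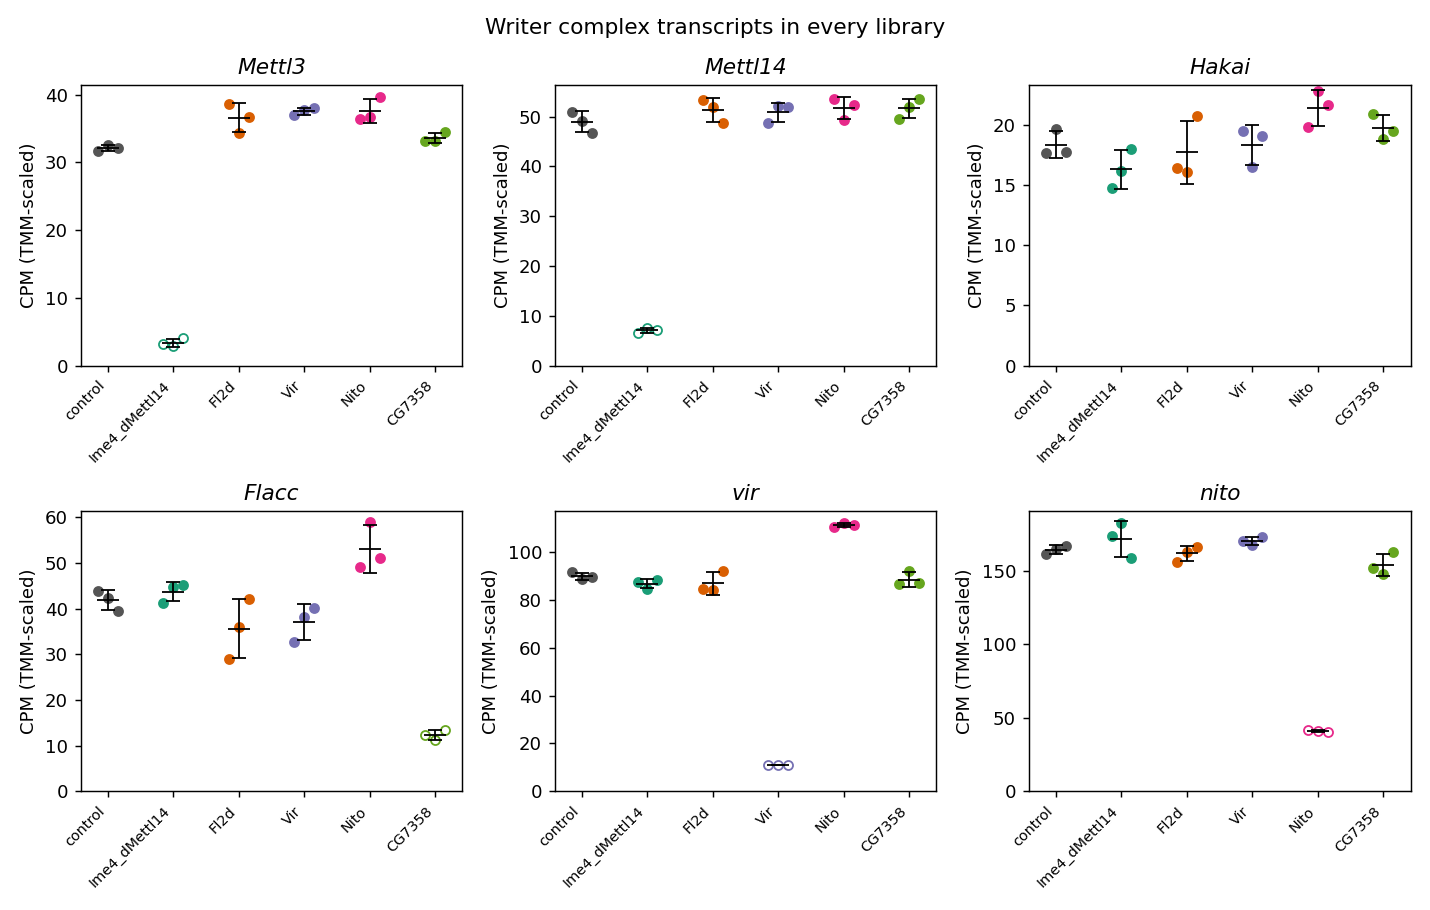
CPM (vertical axis) of each writer transcript in the 3 libraries of each group, with mean and SD as bars. Open circles mark the knockdown aimed at the gene. The Nito libraries of vir (110 to 112) stand above every other untargeted library, whereas the untargeted groups of Mettl14 overlap.

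Over all 40 direct comparisons between 2 knockdowns, neither aimed at the gene, 13 passed the threshold. Of these, 10 were among the 16 comparisons that involve Nito, and 3 were among the other 24. The share of all genes called was 62.4% between Ime4_dMettl14 and Nito, 56.4% between Fl2d and Nito, 57% between Vir and Nito and 55.8% between Nito and CG7358. It was 25.9%, 27% and 31.8% between Ime4_dMettl14 and Fl2d, Vir and CG7358, 11.8% and 13.7% between CG7358 and Fl2d and Vir, and 5.98% between Fl2d and Vir. When the untargeted groups of each gene were put in order of level, 2 of the 25 steps between neighbours passed. These were vir from control to Nito, and Flacc from Ime4_dMettl14 to Nito. The order was taken from the same values, so neighbours in it differ least and a low count says little. The other 23 did not pass the threshold, which does not show that the levels were equal. In 2 of these, Mettl3 from control to CG7358 and nito from control to Vir, the libraries did not overlap. The same held for 47.4% of all genes between control and CG7358 and for 44.4% between control and Vir.

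By count, the untargeted writer genes rose in 0 of 4 in Ime4_dMettl14, 1 of 6 in Fl2d and 1 of 5 in Vir. They rose in 4 of 5 in Nito and 0 of 5 in CG7358. In the same order, 3.01%, 16%, 16.7%, 29.8% and 18.8% of all tested genes were called higher. Called in either direction were 5.63%, 32%, 34%, 60.7% and 37.6%. For the 2 counts of 0, edgeR gave 0 and 1 genes at an unadjusted p under 0.05, and DESeq2 called 0 in both. The count in Nito was 3 by DESeq2. In Nito the median log2 fold change of the 5 untargeted genes was 0.23 against 0.00 for all tested genes, and the median size without sign was 0.23 against 0.21. In Fl2d, Vir and CG7358 the median size was 0.06, 0.06 and 0.08, against 0.11, 0.12 and 0.13 over all genes. In Ime4_dMettl14 it was 0.062 against 0.066. These comparisons share the same control libraries and are not independent of each other. The libraries of knockdown and control did not overlap for 9 of the 25 combinations, where 24.3% of all genes did not overlap in Ime4_dMettl14, 42% in Fl2d, 44.4% in Vir, 65.5% in Nito and 47.4% in CG7358.

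Cell type markers moved in the same libraries, and their part in the results above was not tested. Of the 8 blood cell markers 7 were tested, and in Nito, where 30.9% of all genes were called lower, 0 rose and 5 fell, among them the GATA factor srp (−0.62 ± 0.04, log2, SE) and the scavenger receptor Sr-CI (−0.92 ± 0.05). Their summed level was 746 to 772 CPM in Nito and 958 to 975 CPM in control. It was 986 to 1027 CPM in Ime4_dMettl14, 1034 to 1088 in Fl2d, 944 to 968 in Vir and 987 to 1006 in CG7358. These sums include drpr, with a mean of 60.9 CPM in control and 53.1 in Nito. Its mean was 104 CPM in Ime4_dMettl14, 192 in Fl2d, 136 in Vir and 133 in CG7358. The sums of these groups therefore do not show how the other markers moved. In these 4 groups 1 of the 7 rose and 0 fell in Ime4_dMettl14, 3 rose and 1 fell in Fl2d, 3 rose and 3 fell in Vir, and 4 rose and 2 fell in CG7358. In the same order, 3.01%, 16%, 16.7% and 18.8% of all genes were called higher there. Called lower were 2.63%, 16%, 17.3% and 18.8%. The phagocytic receptor drpr rose in all 4 groups, by 0.77 to 1.66 on the log2 scale, and srp fell in Fl2d (−0.16 ± 0.04), Vir (−0.14 ± 0.04) and CG7358 (−0.17 ± 0.04). Of the neuronal markers brp rose in Nito (1.86 ± 0.28), at 2.42 CPM, while elav was not called there (0.34 ± 0.19, adjusted p = 0.13 by edgeR). The neuronal list, almost wholly elav, summed to 29.9 to 38.7 CPM in Nito and 24.97 to 28.4 CPM in control. Its sum was 27.2 to 35.6 CPM in Fl2d, 22.7 to 29.9 in CG7358, 16.2 to 23.1 in Ime4_dMettl14 and 15.3 to 24.8 in Vir. Levels of nSyb and Syt1 were at or near 0 throughout. The muscle list, almost wholly Mf, summed to 377 to 396 CPM in Vir, 345 to 371 in CG7358, 324 to 370 in Fl2d, 291 to 310 in Ime4_dMettl14, 266 to 287 in Nito and 245 to 289 in control. The germ line gene bam rose in Vir (0.26 ± 0.08) and Nito (0.44 ± 0.07), and the fat body list did not exceed 0.243 CPM.

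Other genes of adenosine methylation were read from the same fit. Of fl(2)d and the 3 reader genes, 1 rose in Ime4_dMettl14, Vir and CG7358, 2 fell in Fl2d, where fl(2)d is the target, and 3 rose in Nito. Of all tested genes 3.01% were called higher in Ime4_dMettl14, 16.7% in Vir, 18.8% in CG7358 and 29.8% in Nito, and 16% lower in Fl2d. The other decrease in Fl2d, of Ythdc1, was lost in 6 of 14 alternatives. The subunit gene fl(2)d rose in all 4 knockdowns not aimed at it, between 0.28 ± 0.03 in Ime4_dMettl14 and 0.52 ± 0.03 in Nito, and its calls held under every alternative. Fmr1, an RNA-binding protein reported to bind m6A-marked RNA in the fly, rose in Nito (0.17 ± 0.03, adjusted p = 9.97e-05 by edgeR) and was not called in the other 4. The nuclear reader gene Ythdc1 also rose in Nito (0.40 ± 0.05), and Ythdf was not called there (0.01 ± 0.03). The paralog of nito, spen, encodes another split ends family protein. It rose in Fl2d (0.52 ± 0.11, adjusted p = 0.00364), CG7358 (0.41 ± 0.11, adjusted p = 0.0128) and Nito (0.31 ± 0.11, adjusted p = 0.0308), and had 0.16 ± 0.11 in Vir and −0.18 ± 0.11 in Ime4_dMettl14. The call in Nito was lost without a filter on low counts (adjusted p = 0.0697) and without control replicate 2 (0.0583), control replicate 3 (0.127), Nito replicate 1 (0.0867) or Nito replicate 3 (0.0953), and that in CG7358 without control replicate 3 (0.0547) or CG7358 replicate 3 (0.0566). The ranges over the alternatives were 0.0173 to 0.127 and 0.00213 to 0.0566.

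Among other RNA methyltransferase genes 5 of the 6 matched were tested, and Mettl5 had 0 counts in every library. Of the 5, 0 rose and 0 fell in Ime4_dMettl14, 1 rose and 1 fell in Fl2d, 3 rose and 1 fell in Vir, 2 rose and 1 fell in Nito, and 1 rose and 1 fell in CG7358. The share of all tested genes called in these knockdowns, in the same order, was 5.63%, 32%, 34%, 60.7% and 37.6%. Mettl4, known as an adenosine methyltransferase acting on U2 snRNA, rose in Fl2d (0.45 ± 0.07), Vir (0.39 ± 0.07), Nito (0.93 ± 0.07) and CG7358 (0.38 ± 0.07) and had 0.18 ± 0.07 in Ime4_dMettl14 (adjusted p = 0.175 by edgeR). Its level went from 16.8 CPM in control to 32.0 CPM in Nito. Pcif1, whose mammalian counterpart methylates the adenosine beside the cap, fell in CG7358 (−0.24 ± 0.04) and Fl2d (−0.17 ± 0.04). In Vir Nsun5, a 5-methylcytosine methyltransferase gene of ribosomal RNA, rose (0.27 ± 0.07, adjusted p = 0.00158 by edgeR). Mt2, the fly Dnmt2 homologue that methylates transfer RNA, fell in Nito (−0.33 ± 0.11, adjusted p = 0.00765, 0.0762 without Nito replicate 2, range 0.00573 to 0.0762). The call of Pcif1 in Vir (−0.10 ± 0.04), the 1 decrease counted there, held in only 3 of 14 alternatives, and its increase in Nito (0.12 ± 0.04) held in 11. The increase of Nsun2 in Vir (0.10 ± 0.03) was lost with scaling by total counts.

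S-adenosylmethionine is the methyl donor of these enzymes. Of 7 genes of its cycle 5 were tested, and at most 2 were called in any knockdown, against the shares of all genes just given. Sam-S, which makes S-adenosylmethionine, rose in Vir (0.18 ± 0.03, adjusted p = 2.75e-05 by edgeR) and fell in Nito (−0.10 ± 0.03, adjusted p = 0.00384). Cbs, a cystathionine beta-synthase gene, rose in Nito (0.20 ± 0.04, adjusted p = 0.000135). The decreases of AhcyL1 in Fl2d (−0.09 ± 0.03) and SamDC in Vir (−0.11 ± 0.04) held in 10 and 7 of 14 alternatives. Ahcy, which removes the product S-adenosylhomocysteine, was called in none, with log2 fold changes between −0.08 and 0.05. Gnmt and AhcyL2 had at most 9 and 1 counts per library.

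Genes whose log2 CPM followed each writer gene most closely over the libraries not aimed at it were listed from 6322 genes as a description, with groups and scaling shared between the points. For vir they were Spt6, IntS2 and Rbf (Pearson r = 0.979, 0.976 and 0.973 over 15 libraries), and for Flacc Isha, nocte and pygo (0.942, 0.936 and 0.935). For Mettl3 they were CG30156, indra and CG3168 (0.904, 0.879 and 0.865). For nito they were CG31229, Su(z)12 and DCTN3-p24 (0.823, 0.813 and 0.806), and for Mettl14 disp, CG42399 and CG1582 (0.758, 0.752 and 0.749). For Hakai, over all 18 libraries, they were Mst85C, Pp2B-14D and yki (0.870, 0.851 and 0.849). None of these lists held another of the 6 writer genes. With so few places per list among 6322 genes, this does not show whether the writer genes varied together.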

How the data were processed

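RNA from S2R+ cells was poly(A)-selected and made into directional libraries, per the labels' protocols. Raw read counts were deposited per FlyBase gene ID in 1 file for each library. The submitters' processing notes list featureCounts 1.5.1, STAR 2.5.1b and BDGP6 as the build. No source used here gives the strand setting, the treatment of overlapping genes or the annotation release. Positions and exon lengths come from Ensembl release 115 on the same assembly, which held 17253 of the 17559 IDs. The other 306 IDs, with 4.83% of counts, stayed in the tests.

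Tests of the counts used edgeR 4.0.16 in R 4.3.3: filterByExpr, TMM scaling and a robust quasi-likelihood fit to all 18 libraries with 1 coefficient per group. Within each contrast the Benjamini-Hochberg adjustment covered all 8146 genes, with calls under an adjusted p of 0.05. The SE is the log2 fold change divided by the square root of F. F tests leave out the group aimed at the gene. Log2 CPM used a prior count of 2. Between libraries of a group the common coefficient of variation was 0.0432, and replicates differed beyond sampling noise (chi-square per degree of freedom 2.33 to 15.7). Whether replicate libraries stem from separate cultures is not labelled. The p-values therefore rest on a spread among libraries that may be technical.

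The test was first tried on simulated counts with known changes. It recovered 27 of 50 genes changed 1.15-fold and 43 of 50 changed 1.25-fold, with 5 false calls among 169. Changes of such sizes can therefore go uncalled. Alternatives were DESeq2 size factors, total counts or upper-quartile scaling, DESeq2 1.42.0 as the test, no filter, a minimum of 5 CPM in 3 libraries, a replicate block, a fit of only the groups compared, and each library left out in turn. A contrast of 2 groups was read only from the fits that left out a library of those groups. The genes and lists were chosen with earlier results of these data known. Named genes are the 6 writer genes, called members of the lists, their neighbours and the 3 most similar genes of each. Mettl16 and the germ line markers vas and nos were not analysed here, and bam was at 13.5 to 21.0 CPM.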

Additional observations from a re-analysis of the deposited data

How the results depend on the processing

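Direct comparisons not called in the fit reported enter only through their count. The 5 decreases of the targeted genes held under all alternatives, from −3.39 to −3.15 for Mettl3, −2.84 to −2.73 for Mettl14, −3.03 to −3.01 for vir, −2.03 to −1.99 for nito and −1.82 to −1.70 for Flacc (log2) when a library was left out. Of the 6 increases of untargeted genes 3 held under every alternative (Mettl3 in Vir and Nito, vir in Nito), as did 7 of the 13 direct comparisons called. The number of untargeted genes called in Fl2d was 0 with total counts and 0 to 2 on leaving out a library. In CG7358 it was 1 with total counts, 1 with upper-quartile scaling, 1 without a filter, and 0 to 1 on leaving out a library. In Nito it was 2 to 4 on leaving out a library. Direct comparisons called numbered 10 to 16. The values that changed sign were never called: Hakai in Vir (−0.0499 with total counts, −0.0034 with upper-quartile scaling, −0.0027 without a filter, −0.0019 with the replicate block, and −0.0395 to 0.0709 on leaving out a library), Hakai in Fl2d (−0.186 to 0.0105 on leaving out a library) and nito in Vir (−0.00061 with total counts). The cause was not tested. Of the 34 calls of list genes and target neighbours that were refitted 20 held throughout; the others were at most 0.41 in size (spen in CG7358). All genes called in Ime4_dMettl14 numbered 459, and 233 to 364 on leaving out a library. Same-numbered libraries deviated together with r above 0.1 in 5 of 45 pairs (−0.0865 to 0.17), so the numbers were not taken as pairs; with the replicate block 14 direct comparisons were called. Counts of at most 3 per library limit CG14763, AhcyL2 and Mettl5.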
